A study of Mus musculus with 14 samples.

Results

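The genes described here encode the enzymes that make citrulline and arginine and those that break arginine down: Nags, Cps1, Otc, Oat, Ass1, Asl, Arg1, Arg2 and Odc1. They were chosen by name from knowledge of the pathway, and all 9 were found among the 46882 entries of the deposited expression table. RNA was measured in whole ileum, the last stretch of the small intestine, of inbred C57BL/6N mice, with titles that call all animals wild type (WT). The groups were 4 untreated mice of postnatal day 14 (P14, suckling), 4 untreated mice of day 24 (P24, about weaning), 3 mice given saline (PBS) and 3 mice given recombinant mouse interleukin-22 (rmIl22). Per the labels' protocols, both injected groups received 100 µL at days 14 and 15, with 0.1 µg of rmIl22 per g of body weight or with PBS alone, and were killed at day 16. The age field disagrees with this: there the rmIl22 mice have day 24 and the PBS mice day 14. The series title ties IL-22, which signals to the epithelium by way of STAT3, to maturation of the gut surface during weaning.

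As background, N-acetylglutamate made by Nags switches on Cps1, which makes carbamoyl phosphate in mitochondria, and Otc joins it to ornithine to give citrulline. Oat interconverts ornithine and the glutamate and proline pathway, and Ass1 followed by Asl turns citrulline into arginine. Enterocytes of suckling mammals are known for carrying all of these steps and so making arginine, which milk supplies sparingly, whereas after weaning citrulline leaves the gut and the kidney completes the synthesis. The arginases Arg1 (cytosolic, known from liver and from some macrophages) and Arg2 (mitochondrial) split arginine into urea and ornithine, and Odc1 turns ornithine into the polyamine putrescine.

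Levels are given in TPM (a transcript abundance corrected for gene length, with equal totals in all libraries), so they can be compared between genes. Values within a group are listed in the order of the deposited column numbers (P14 libraries 1, 2, 4 and 5; P24 libraries 1, 2, 6 and 8; libraries 1 to 3 of each injected group). Each library held 35.7 to 46.5 M recovered reads. Y-linked genes marked 2 of 4 P14, 1 of 4 P24, 3 of 3 PBS and 1 of 3 rmIl22 mice as male. In rmIl22 library 2, Lct stood at 523 TPM against 66.0 and 65.1 TPM in the others of its group and Slc10a2 at 35.7 TPM against 366 and 237 TPM. Of other suckling and ileal enterocyte markers, Mamdc4, Lgmn and Npl were also highest there within the group and Fabp6 lowest. Folr1 (402 TPM) and Fabp2 (1368 TPM) lay between the others of the group, and Alpi (1701 TPM) and Apob (1052 TPM) were highest. The rmIl22 results are given with and without this library. Markers of ileal enterocytes were present in every library. Fold changes are log2 differences of TPM + 1, which understate the change of low genes, with their standard error (SE). A gene was called higher or lower when its limma p-value, adjusted over all genes tested, was under 0.05. In whole tissue, fewer cells of a type and less RNA per cell cannot be told apart.

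Promoter windows are shown for Ass1 and Oat, which were lower at P24, and for Otc, which was not. The RefSeq table of promoters (GRCm38.p6) matched 5 of the 9 genes (Ass1, Otc, Nags, Oat and Odc1). Arg2, Arg1, Asl and Cps1 were not matched. Each sequence runs 5′ to 3′ along the strand of its gene and stops at the base before the gene's annotated start. The Ass1 window is chr2:31470020-31470206 (plus strand), the Oat window chr7:132576399-132576648 (minus strand) and the Otc window chrX:10252055-10252304 (plus strand). Capitals mark matches to CCAAT in the Oat window and to TTTATG, the CDX2-type letters, in the Otc window, on either strand.
Ass1: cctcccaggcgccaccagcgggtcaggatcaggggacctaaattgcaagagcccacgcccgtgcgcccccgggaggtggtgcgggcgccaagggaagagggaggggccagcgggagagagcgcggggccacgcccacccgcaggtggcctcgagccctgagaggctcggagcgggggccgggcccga
Oat: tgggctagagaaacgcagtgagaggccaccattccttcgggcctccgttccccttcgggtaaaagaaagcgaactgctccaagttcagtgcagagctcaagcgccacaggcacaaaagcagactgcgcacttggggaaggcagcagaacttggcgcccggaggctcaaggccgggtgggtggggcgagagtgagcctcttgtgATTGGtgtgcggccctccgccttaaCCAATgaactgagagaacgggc
Otc: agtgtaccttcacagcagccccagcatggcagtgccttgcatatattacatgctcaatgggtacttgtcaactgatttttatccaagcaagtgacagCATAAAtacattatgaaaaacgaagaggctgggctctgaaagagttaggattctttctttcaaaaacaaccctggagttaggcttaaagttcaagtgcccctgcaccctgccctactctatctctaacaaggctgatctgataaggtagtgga
The Ass1 window is rich in G and C (75.4% of its bases), against 60.0% for Oat and 43.6% for Otc. Both strands were searched in the 250 bases before the RefSeq start for 8 short motifs. The GC box was written GGGCGG, the STAT site TTCNNNGAA, the glucocorticoid receptor site ACANNNTGT, the C/EBP site TTGCNNAA, the E box CANNTG and the TATA box TATAAA, beside the letters of the CCAAT box and the CDX2-type site given above. Over all 32851 promoter windows of that length, 12.4% held the TATA box, 33.8% the CCAAT box, 32.7% the GC box, 7.02% the STAT site, 5.84% the glucocorticoid receptor site, 9.56% the C/EBP site, 10.8% the CDX2-type letters and 66.2% the E box. In the Oat window, CCAAT lay at -22 and, on the other strand, at -47. The Otc window held TTTATG on the other strand, at -153. The STAT letters were found in 0 of the 5 windows. No capitals appear in the Ass1 window: its GGGCGG match, at -63 from the RefSeq start, lies within the gene as GENCODE draws it. E boxes were left in lower case, since most windows hold one. These matches are descriptions of the letters only.

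The P24 against P14 comparison asks how the ileum differs between suckling and weaning age. At P24, transcripts of the enzymes that make arginine from citrulline were far lower (log2 fold change -4.85 for Ass1 and -2.76 for Asl), Oat and Cps1 were lower, and Arg2 was higher (5.33). Otc and Nags did not pass the test. Of the 9 genes, 1 rose, 6 fell and 2 were not called, beside 58.3% of all 14651 genes tested that were called (14.6% higher and 43.7% lower). The median log2 fold change was -0.78 over the 9 genes and -0.24 over all genes tested. The groups did not overlap for 7 of the 9 genes, against 52.4% of all genes tested.

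**Figure D1:**
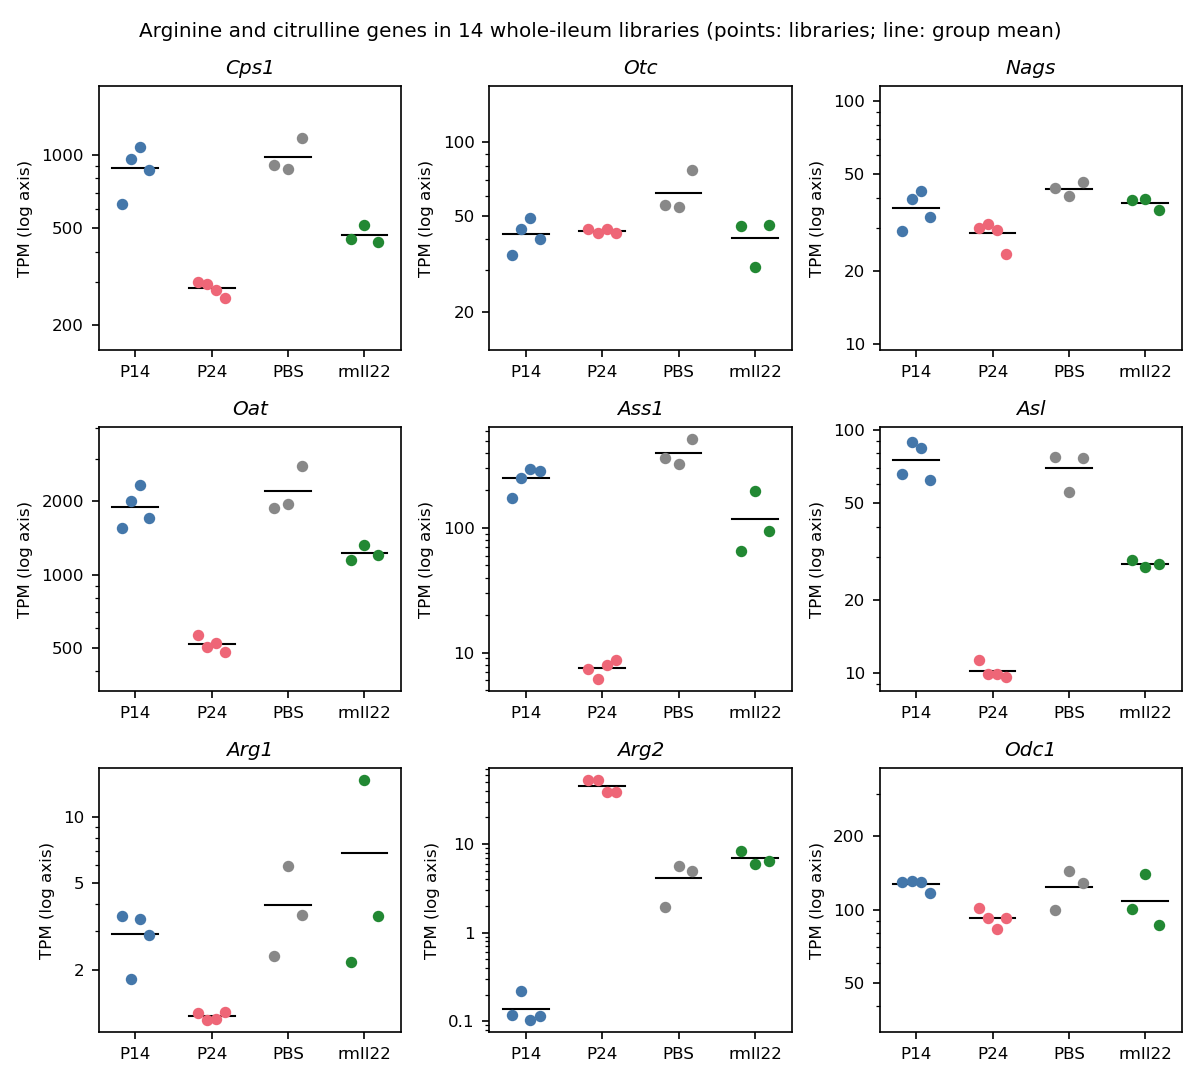
TPM (log axis) of the 9 genes in each of the 14 libraries, by group; points are libraries and black lines group means. Ass1 stood at 173 to 297 TPM at P14 and at 6.12 to 8.83 TPM at P24, Arg2 at 0.102 to 0.219 and at 38.2 to 52.7 TPM, while the Otc values of these groups overlapped.

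The citrulline-making enzymes did not move as a block. Cps1 (chr1:67123026-67231259, plus strand), the carbamoyl phosphate synthetase, was at 627, 959, 1073 and 868 TPM at P14 and at 299.6, 295, 278 and 257 TPM at P24. Every P24 library lay below every P14 library, and the log2 fold change was -1.62 (SE 0.15, adjusted p = 3.92e-06). Otc (chrX:10252305-10321024, plus strand), the ornithine transcarbamylase that uses the product of Cps1, was at 34.3, 44.2, 48.8 and 40.2 TPM at P14 and at 44.1, 42.5, 44.0 and 42.3 TPM at P24. These groups overlapped, and Otc was not called (log2 fold change 0.06, SE 0.11, adjusted p = 0.674). Scaling libraries to the median gene instead gave 0.35 for Otc and a call (adjusted p = 0.00631), so its side of the threshold turns on the scaling. Otc lies on the X chromosome, and with a term for sex it was not called either (adjusted p = 0.821). Nags (chr11:102145513-102149477, plus strand), whose product activates Cps1, was at 29.2, 39.6, 42.8 and 33.4 TPM at P14 and at 30.2, 31.2, 29.6 and 23.5 TPM at P24. Its groups overlapped and it just missed the threshold (log2 fold change -0.32, SE 0.13, adjusted p = 0.0555). Without P14 library 1, the lowest P14 library for Nags, the adjusted p was 0.0164. With median scaling the Nags value was -0.03 and far from a call (adjusted p = 0.83), so its nearness to the threshold turns on the scaling.

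Oat (chr7:132557478-132576398, minus strand), the ornithine aminotransferase, was the most abundant of the 9 transcripts in every group, with 1549, 2016, 2326 and 1704 TPM at P14 and 566, 503, 525 and 479 TPM at P24. All P24 values lay far below the lowest P14 value, and Oat fell by 1.86 on the log2 scale (SE 0.14, adjusted p = 4.86e-07).

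The conversion of citrulline to arginine showed the largest falls among the 9 genes. Ass1 (chr2:31470207-31520672, plus strand), the argininosuccinate synthase, was at 173, 249.9, 297 and 286 TPM at P14 and at 7.48, 6.12, 7.99 and 8.83 TPM at P24. The highest P24 value was far under the lowest P14 value, and the log2 fold change was -4.85 (SE 0.16, adjusted p = 7.21e-10). Asl (chr5:130011258-130029247, minus strand), the lyase of the next step, was at 66.0, 89.4, 83.9 and 62.3 TPM at P14 and at 11.3, 9.89, 9.86 and 9.64 TPM at P24. It fell by 2.76 on the log2 scale (SE 0.12, adjusted p = 7.58e-09), with no overlap between the groups.

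The enzymes that use arginine and ornithine went different ways. Arg2 (chr12:79130777-79156301, plus strand), the mitochondrial arginase, was at 0.118, 0.219, 0.102 and 0.114 TPM at P14 and at 52.7, 52.3, 38.2 and 38.4 TPM at P24. The P14 values rest on 4, 7, 3 and 4 recovered reads, against 1161 to 1800 reads in the P24 libraries. Per depth, the pooled reads were 339 times higher at P24 (5534 against 18 reads, 95% counting interval 214 to 572, which covers counting error only). Arg2 passed the expression filter only through the P24 libraries, so a difference was built into its entry. The test gave a log2 fold change of 5.33 (SE 0.13, adjusted p = 6.03e-11), with 7.58 when 0.1 in place of 1 was added to the TPM. Arg2 shares 285 exon bases with Vti1b on the opposite strand. Vti1b stood at 84.1 to 98.7 TPM in the P14 libraries, where Arg2 had at most 7 reads, and at 95.8 to 108 TPM at P24.

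Arg1 (chr10:24915221-24927484, minus strand), the cytosolic arginase, was low throughout, at 3.52, 1.82, 3.40 and 2.87 TPM at P14 and 1.27, 1.18, 1.19 and 1.28 TPM at P24. The groups did not overlap and Arg1 fell by 0.78 on the log2 scale (SE 0.16, adjusted p = 0.00122). Fitted with all 14 libraries, where its spread in the injected mice also counts, it was not called (adjusted p = 0.0948). Odc1 (chr12:17544794-17551505, plus strand), the ornithine decarboxylase, was at 129.5, 131, 130.3 and 117 TPM at P14 and at 101, 92.0, 83.0 and 92.0 TPM at P24. It fell by 0.46 on the log2 scale (SE 0.09, adjusted p = 0.00116), but with median scaling the value was -0.17 and it was not called (adjusted p = 0.103).

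**Figure D2:**
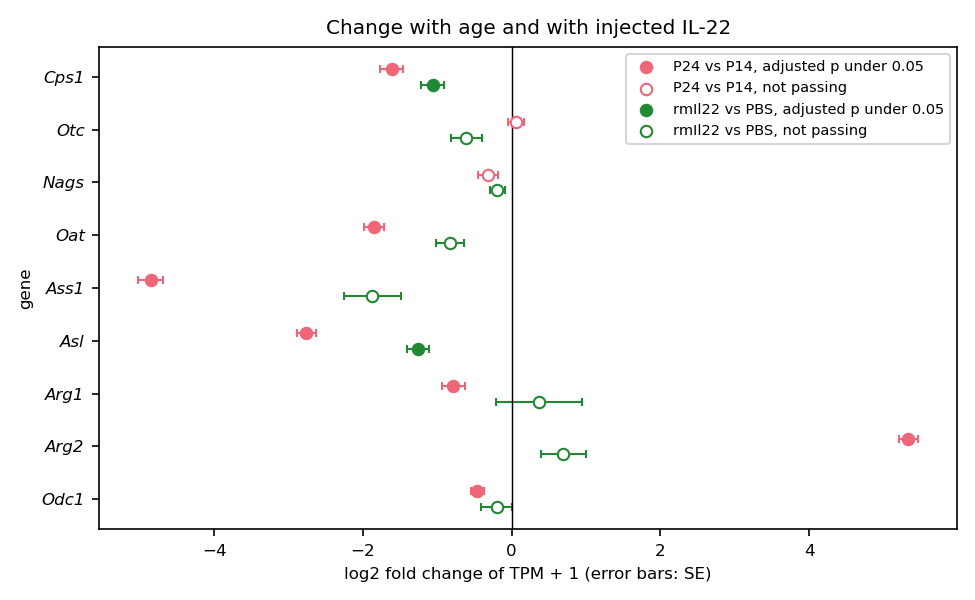
Log2 fold change of TPM + 1 with its SE for the 9 genes, P24 against P14 (red) and rmIl22 against PBS (green); filled points had an adjusted p under 0.05. With age 7 of 9 points are filled and reach from -4.85 (Ass1) to 5.33 (Arg2); with rmIl22 only Asl (-1.26) and Cps1 (-1.06) are filled.

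The rmIl22 against PBS comparison asks what injected IL-22 changes before weaning. Asl and Cps1 were lower after rmIl22, by 1.26 and 1.06 on the log2 scale. Ass1 had a larger difference that did not pass, with rmIl22 libraries that spread from 65.5 to 197 TPM. Of the 9 genes, 0 were called higher and 2 lower, beside 2.69% of 14456 genes tested (0.443% higher and 2.25% lower). No gene of the 9 was higher at an unadjusted p under 0.05 in limma either, or with limma's voom on recovered reads (0 called). The median log2 fold change was -0.61 over the 9 genes and -0.05 over all genes tested. Groups did not overlap for 7 of the 9 genes, against 21.1% of all genes.

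Cps1 was at 909, 871 and 1174 TPM in the PBS libraries and at 452, 512 and 437 TPM in the rmIl22 libraries (log2 fold change -1.06, SE 0.16, adjusted p = 0.0209). Every rmIl22 value lay below every PBS value. Otc, at 55.1, 54.3 and 77.2 TPM after PBS and 45.2, 30.8 and 45.6 TPM after rmIl22, was not called (log2 fold change -0.61, SE 0.20, adjusted p = 0.197). Nags was at 43.8, 40.7 and 46.4 TPM after PBS and at 39.1, 39.5 and 35.6 TPM after rmIl22, a small gap that was not called (-0.19, SE 0.10, adjusted p = 0.472). Oat was at 1884, 1945 and 2789 TPM after PBS and at 1146, 1321 and 1203 TPM after rmIl22. Its groups were apart, but the difference was not called (-0.83, SE 0.19, adjusted p = 0.0717).

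Ass1 was at 361, 327 and 515 TPM after PBS and at 65.5, 197 and 93.7 TPM after rmIl22. The value of 197 TPM belongs to rmIl22 library 2. All 3 rmIl22 values lay below all PBS values, with a log2 fold change of -1.87 (SE 0.39, adjusted p = 0.0553). Without rmIl22 library 2 the log2 fold change was -2.31 (adjusted p = 0.00106). With any other single library left out Ass1 was not called (adjusted p from 0.0993 to 0.263). Asl was at 77.5, 55.5 and 76.3 TPM after PBS and at 29.1, 27.3 and 28.1 TPM after rmIl22. The rmIl22 libraries, library 2 included, sat close together here, and Asl fell by 1.26 on the log2 scale (SE 0.15, adjusted p = 0.0125).

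Arg2 was at 1.93, 5.60 and 4.94 TPM after PBS and at 8.33, 6.00 and 6.46 TPM after rmIl22. The groups were apart by a narrow margin, and the log2 fold change of 0.70 was not called (SE 0.31, adjusted p = 0.345). Without PBS library 1, the lowest for Arg2, it was 0.33. Arg1 was at 2.31, 5.97 and 3.56 TPM after PBS and at 2.18, 14.7 and 3.51 TPM after rmIl22. Its one high value was again rmIl22 library 2, which also held the highest Itgam (18.6 TPM) and Chil3 (8.43 TPM) of the 14 libraries, both markers of myeloid cells. The other markers of that list did not all follow: Mrc1 (4.22 TPM) was at its lowest of the 14 libraries there, and Csf1r (30.005 TPM), Cd163 (0.602 TPM) and Retnla (0.583 TPM) at their lowest of the rmIl22 group. The part of such cells in the Arg1 value was not tested. Arg1 was not called (0.37, SE 0.58, adjusted p = 0.854), and without that library its log2 fold change was -0.32. Odc1 was at 99.5, 144 and 129 TPM after PBS and at 101, 139 and 86.1 TPM after rmIl22, with overlapping groups and no call (-0.20, SE 0.21, adjusted p = 0.764).

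These calls depended on which libraries entered, and so did the number of all genes called. That number was 389 with all libraries, 1309 without rmIl22 library 2, and 14 and 4 without PBS library 1 and 3. Without PBS library 2, rmIl22 library 1 or rmIl22 library 3 it was 119, 148 or 118. With no expression filter it was 98, with a term for sex 122 and in the fit of all 14 libraries 1039. Without rmIl22 library 2, 4 of the 9 genes were called lower (Ass1, Asl, Cps1 and Oat). Their log2 fold changes were then -2.31, -1.24, -1.13 and -0.89 (limma adjusted p from 0.00106 to 0.0215). The uncalled genes stood at 0.78 (Arg2), -0.43 (Otc), -0.22 (Nags), -0.32 (Arg1) and -0.40 (Odc1, from -0.20 with all libraries). Without PBS library 1 or PBS library 3, 0 were, and the adjusted p of Asl was 0.0729 and 0.0866. Without PBS library 2, rmIl22 library 1 or rmIl22 library 3, Asl alone was called. With no expression filter Cps1 was not called (adjusted p = 0.0729). All 3 PBS mice were male and 2 of the 3 rmIl22 mice female. With a term for sex, 0 were called (Asl -1.22, adjusted p = 0.0647; Cps1 -1.11, adjusted p = 0.0946). In the fit of all 14 libraries 5 were lower, with Otc (adjusted p = 0.0466) joining those 4. The authors' deposited table for this comparison, which lists 1102 genes with adjusted p up to 0.00999, holds the same 5 genes: Ass1 at -1.66, Asl at -1.27, Cps1 at -1.02, Oat at -0.80 and Otc at -0.58. Arg2, Arg1, Nags and Odc1 are not listed there.

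For age, the authors' deposited table gives Arg2 a log2 fold change of 8.68, Ass1 -4.73, Asl -2.56, Oat -1.54 and Cps1 -1.31. In that deposited table Otc is higher by 0.37 (adjusted p = 0.0067). Odc1 (-0.15, adjusted p = 0.557) and Arg1 (-0.92, adjusted p = 0.125) are not under 0.05 in the authors' deposited table, nor is Nags (-0.01, adjusted p = 0.981).

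Whether the age effect and the rmIl22 effect differed in size was tested directly as a difference of log2 fold changes, age minus rmIl22. It passed for 5 of the 9 genes, beside 23.8% of 15702 genes tested. The age effect was larger for Arg2 (difference 4.64, SE 0.32, adjusted p = 5.62e-07), for Ass1 (-2.98, SE 0.42, adjusted p = 0.000274), for Asl (-1.50, SE 0.20, adjusted p = 0.000158) and for Oat (-1.03, SE 0.23, adjusted p = 0.00587). Arg2 was under 1 TPM in every P14 library and met the filter of the age comparison only through P24. Its age effect, a term of this difference, was thus partly built into its entry, and nothing is read from its p-value. For Cps1 the difference was -0.55 (SE 0.23) and did not pass (adjusted p = 0.0949). Without P14 library 1 it was -0.70 and did pass (adjusted p = 0.0164). Otc differed by 0.66 (SE 0.22, adjusted p = 0.0452), a call that was lost in 13 of 20 alternatives. Without rmIl22 library 2 the differences were 4.55 for Arg2, -2.54 for Ass1, -1.52 for Asl and -0.97 for Oat, all called, and 0.48 for Otc and -0.48 for Cps1, not called.

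Across the 4 groups, Ass1, Cps1 and Oat shared 1 order, lowest at P24, then rmIl22, P14 and PBS. For each of these genes P24 was below rmIl22 and rmIl22 below P14, while P14 and PBS were not separated by the test. The Ass1 values of rmIl22 and P14 overlapped, through rmIl22 library 2. For Asl, P24 lay below rmIl22 and rmIl22 below PBS (adjusted p = 0.000225 in the 14-library fit), and PBS and P14 were not separated. Arg2 ran from P14 through PBS and rmIl22 to P24. PBS exceeded P14 (log2 fold change 2.09, SE 0.23, adjusted p = 0.000606) and P24 exceeded rmIl22 (2.54, SE 0.23, adjusted p = 2.7e-06), but rmIl22 and PBS were not separated (adjusted p = 0.125 in this fit). Among neighbours in its order, Otc was separated between P24 and PBS and not elsewhere, and Nags between P24 and P14 (adjusted p = 0.0343 in this fit) and not elsewhere. Arg1 and Odc1 were separated between no neighbours. In all, 12 of 27 pairs of neighbours passed. The contrasts called 29.7% (P24 against rmIl22), 11.7% (rmIl22 against P14), 43.5% (P24 against PBS) and 2.38% (PBS against P14) of all genes. In the same fit, P24 against P14 called 8666 and rmIl22 against PBS 1039 of 15702 genes.

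Arg2 was the only one of the 9 genes called between PBS and P14, neither of which was given IL-22. Pooled PBS libraries held 369 Arg2 reads (59, 185 and 125 by library) against 18 at P14, 28.0 times the P14 level per depth. The 95% counting interval of 17.5 to 47.8 covers counting error only, not the spread between mice. In that comparison limma called 1 of the 9 genes higher and 0 lower, beside 1.84% of genes called higher and 0.541% lower. At an unadjusted limma p under 0.05, 3 were higher (Arg2, Otc and Ass1) and 0 lower. Otc and Ass1 were not called (adjusted p = 0.0932 and 0.278). The share of all genes at that unadjusted level was not computed, so no direction of the 9 genes is read from this count. Age (day 16 against day 14) and the injections cannot be told apart here, nor can any batch, which the labels do not give. Sex was unequal as well, with 3 of 3 PBS and 2 of 4 P14 mice marked male.

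**Figure D3:**
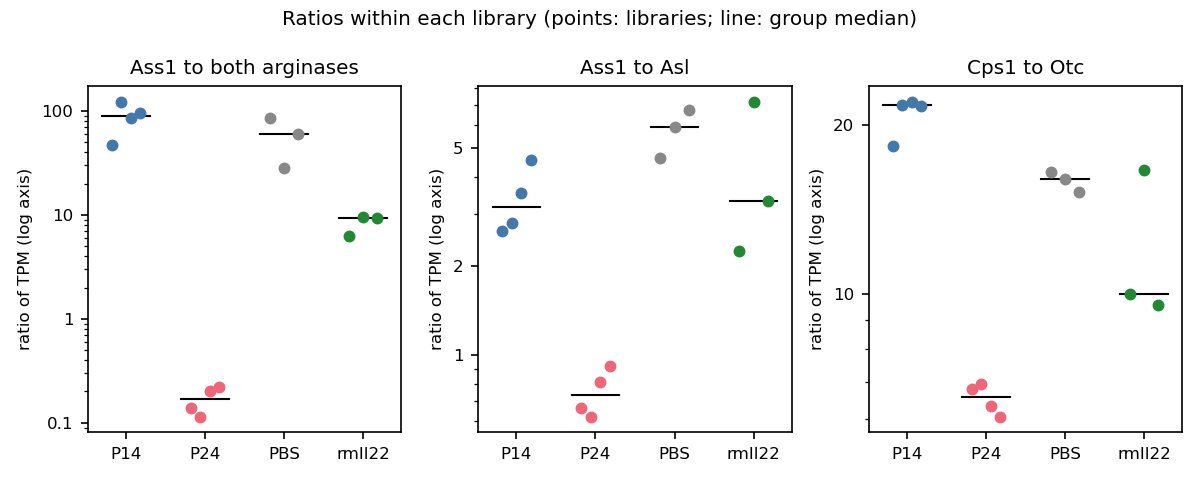
Ratios of TPM within each library (log axis): Ass1 to the sum of both arginases, Ass1 to Asl, and Cps1 to Otc; points are libraries and lines group medians. The ratio of Ass1 to both arginases was 47.5 to 123 at P14, 28.3 to 85.2 after PBS, 6.23 to 9.49 after rmIl22 and 0.114 to 0.222 at P24.

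Ratios between genes of the same library do not depend on how libraries are scaled, and they are given as descriptions. Transcripts of Ass1, which leads to arginine, outnumbered those of both arginases 47.5 to 123 times at P14 and were 0.114 to 0.222 of them at P24. The rmIl22 libraries lay between, at 6.23 to 9.49, and library 2 (9.49) was close to library 3 (9.39), with Ass1 and Arg1 both high in library 2. Ass1 was 2.62 to 4.59 times Asl at P14, 4.66 to 6.75 times after PBS, 2.25 to 7.196 times after rmIl22 (highest in library 2) and 0.619 to 0.916 times at P24. The rmIl22 libraries spanned the range of P14 and PBS here. Cps1 was 18.3 to 21.97 times Otc at P14, 15.2 to 16.5 times after PBS and 6.06 to 6.93 times at P24. After rmIl22 this ratio was 10.002 and 9.58 in libraries 1 and 3 and 16.6 in library 2. The ratio of Cps1 to its activator gene Nags was 21.5 to 26.0 at P14, 20.7 to 25.3 after PBS, 11.6 to 13.0 after rmIl22, library 2 included, and 9.38 to 10.9 at P24. Arg2 was 0.0301 to 0.121 of Arg1 at P14 and 30.001 to 44.5 times Arg1 at P24. Summed over the 9 genes, the level was 2612 to 4005 TPM at P14, 3435 to 4815 TPM after PBS, 1889 to 2288 TPM after rmIl22 and 952 to 1114 TPM at P24. Oat made up 57.3% of that sum at P14 and 50.4% at P24, and Ass1 7.57% and 0.744%.

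Markers of other states and cells moved with these genes, and their part in the results was not tested. The summed level of 5 suckling enterocyte markers (Lct, Mamdc4, Lgmn, Folr1 and Npl) was 6950 to 9028 TPM at P14, 7908 to 9698 TPM after PBS, 2929 to 6582 TPM after rmIl22 and 120 to 180 TPM at P24, and 5 of 5 fell with age. The sum over 6 epithelial markers was 4582 to 5833 TPM at P14 and 9034 to 11601 TPM at P24. With age, 4 of these 6 rose and 0 fell. Much of the higher sum was Krt8 (1345 to 1716 TPM at P14 and 3720 to 4807 TPM at P24) and Krt20 (59.8 to 92.9 and 1465 to 1841 TPM). Epcam overlapped between the groups, at 1986 to 2596 and 2059 to 2746 TPM. Since liver is the main site of the urea cycle, 6 hepatocyte markers were read as well. Alb, the defining one, was at or below 0.181 TPM in every library, whereas the sum of the 6 was 130.0 to 167 TPM at P14 and 15.9 to 39.7 TPM at P24, and 116 to 141 TPM after PBS and 24.1 to 44.8 TPM after rmIl22. Most of the sum at P14 was Ttr, at 128 to 165 TPM. With age, 2 of its 4 tested markers rose and 2 fell, and Tat was at 0.0509 to 0.13 TPM at P14 and 8.18 to 26.5 TPM at P24. The sum of 8 macrophage and myeloid markers, cells that can carry Arg1, was 84.5 to 104 TPM at P14, 48.2 to 61.5 TPM at P24, 109 to 136 TPM after PBS and 71.0 to 90.4 TPM after rmIl22. With age, 2 of its 7 tested markers rose and 2 fell. Csf1r made up much of the lower sum, at 52.1 to 66.0 TPM at P14 and 12.8 to 17.3 TPM at P24, while Itgam was at 2.86 to 4.31 and at 5.43 to 7.13 TPM. Other lists moved with age too. The 5 ileal enterocyte markers summed to 2583 to 4358 TPM at P14 and 22837 to 32303 TPM at P24, and 3 rose and 1 fell. Of 4 endothelial markers 4 fell (sums of 37.6 to 57.7 and 20.9 to 26.3 TPM). Of 3 tested adipocyte markers 3 rose (0.252 to 43.4 and 149.6 to 273 TPM), and of 4 B and plasma cell markers 2 did (1.87 to 9.84 and 24.9 to 113 TPM). Of 5 proliferation markers 2 rose and of 4 smooth muscle markers 1 did, with sums that overlapped between P14 and P24. The 1 pancreas marker tested fell. Beside these counts, 14.6% of all genes tested were called higher with age and 43.7% lower. Nothing particular to the lists is read from their counts.

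Other genes of arginine metabolism changed in both directions with age. Of 44 listed, 38 were tested: 8 rose, 19 fell and 11 were not called, with a median log2 fold change of -0.34, beside 14.6% of all genes called higher and 43.7% lower. Several of the lists below lie near those shares, and nothing particular to them is read from their counts. With median scaling 15 of them rose, so the count of rises turns on the scaling. Among genes of precursor supply, 3 of 11 rose and 5 fell. Aldh18a1, which makes the pyrroline-5-carboxylate that Oat can turn to ornithine, was at 232, 319, 348 and 271 TPM at P14 and 48.2, 47.4, 35.6 and 31.5 TPM at P24 (log2 fold change -2.82, SE 0.16, adjusted p = 6.04e-08). It lay lower in every P24 library. Aldh4a1, which oxidises the same intermediate to glutamate, rose by 2.01 (SE 0.20), from 1.13 to 1.92 TPM at P14 up to 6.87 to 15.0 TPM at P24. Glul, the glutamine synthetase, fell by 1.00 on the log2 scale.

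**Figure D4:**
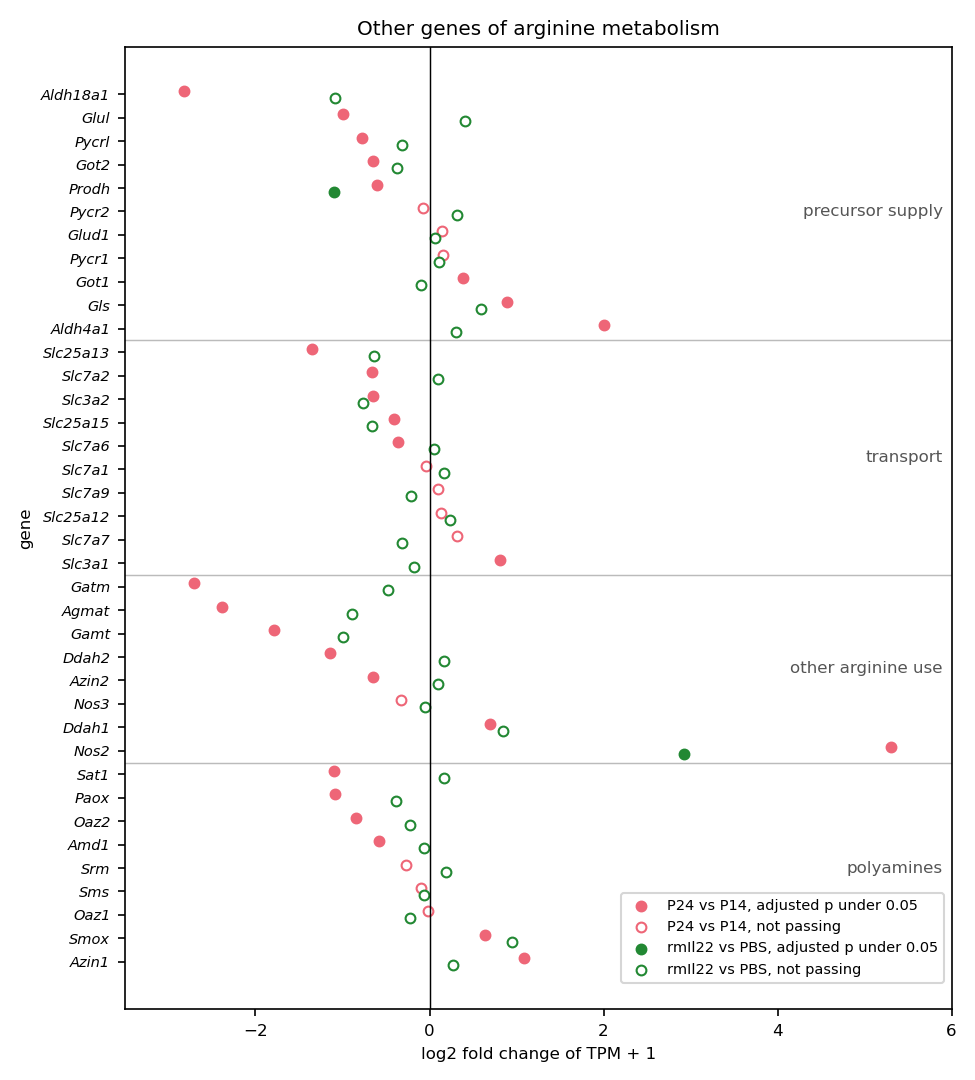
Log2 fold change of TPM + 1 for the 38 other genes of arginine metabolism tested, by list, P24 against P14 (red) and rmIl22 against PBS (green); filled points had an adjusted p under 0.05. Nos2 lies farthest to the right in both comparisons (5.30 and 2.93), and Aldh18a1, Gatm and Agmat lie farthest to the left with age.

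Of 10 transport genes tested, 1 rose and 5 fell with age. Slc3a1, the partner of a brush border carrier of cystine and basic amino acids, rose by 0.81 (SE 0.15). Slc25a13, the mitochondrial aspartate carrier that feeds Ass1 with its other substrate, fell by 1.35 on the log2 scale (SE 0.12), and Slc7a2, a cationic amino acid transporter, fell by 0.66. Among other routes of arginine use, 2 of 8 rose and 5 fell. Nos2, the inducible nitric oxide synthase, was at 0.797, 1.27, 1.07 and 0.914 TPM at P14 and at 58.7, 126, 65.6 and 76.0 TPM at P24 (log2 fold change 5.30, SE 0.20, adjusted p = 1.67e-09). It met the filter of 4 libraries only through P24, as Arg2 did. Gatm, which starts creatine synthesis from arginine, fell by 2.71 (SE 0.24) and Agmat, an agmatinase, by 2.39 (SE 0.13). Among polyamine genes, 2 of 9 rose and 4 fell. Azin1, which counters the inhibitors of Odc1, rose by 1.08 (SE 0.11), while Sat1, a polyamine acetyltransferase, and Paox, a polyamine oxidase, fell by 1.10 and 1.09.

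After rmIl22, 1 of the 38 was called higher and 1 lower (median log2 fold change -0.05). Of all 14456 genes tested, 0.443% were called higher and 2.25% lower, and nothing particular to the list is read from its counts. Nos2 was at 1.05, 0.793 and 0.579 TPM after PBS and at 24.3, 13.7 and 5.88 TPM after rmIl22 (log2 fold change 2.93, SE 0.43, adjusted p = 0.0204). It met the expression filter only through the rmIl22 libraries, so a difference was built into its entry. Every rmIl22 library lay above every PBS library. Prodh, the proline dehydrogenase, was at 101, 94.5 and 122 TPM after PBS and at 50.3, 55.9 and 41.1 TPM after rmIl22 (-1.09, SE 0.15, adjusted p = 0.0191). Both calls were lost without PBS library 1, 2 or 3 in turn, with adjusted p from 0.0757 to 0.14 for Nos2 and from 0.053 to 0.117 for Prodh. Prodh was also lost without rmIl22 library 3 (adjusted p = 0.054) and with the sex term (adjusted p = 0.0981), and Nos2 with voom (adjusted p = 0.0521). Both were lost with no expression filter (adjusted p = 0.0736 for Nos2 and 0.0584 for Prodh). Without rmIl22 library 2, 4 of the other genes were called higher and 5 lower, in a run that called 1309 of all genes tested.

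For 4 of the 9 genes, the protein-coding genes with the most similar profile were sought over the 14 libraries. The measure was the root mean square difference of centred log2(TPM + 1) values, among 12803 genes. Nearest to Arg2 were Ocm (0.40), Gm11437 (0.43) and Krt20 (0.47), against a root mean square of 2.05 for Arg2 itself. Ocm went from a mean of 1.92 TPM at P14 to 107 TPM at P24, and Krt20 from 81.6 to 1688 TPM. Among those nearest to Ass1 were Ctsl (0.30) and Snx8 (0.33). Ctsl, a lysosomal protease, went from 2191 to 75.4 TPM. The flat profile of Otc was closest to Agmo (0.11), Slc39a5 (0.13) and Tob2 (0.14), and that of Odc1 to Trmt6 (0.09), Haus7 (0.10) and Mrpl16 (0.10).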

How the data were processed

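Whole-ileum RNA of 14 mice was sequenced from ribosome-depleted, stranded libraries (per the labels' protocols). Expression comes from the authors' deposited table of TPM for each gene symbol in each library. Per the submitters' processing notes, the tools were STAR 2.4.0f, HTSeq 0.6.1p1, DESeq2 1.14, FastQC 0.11.2 and the mm10 genome. How strand was handled was not given in the sources used here. Reads of antisense partners can therefore not be told apart. The authors' 2 deposited tables of comparisons give log2 fold changes and adjusted p-values, written with decimal commas. Column numbers of the P14 and P24 libraries are not the titles' replicate numbers, so these columns were assigned to groups only.

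The libraries of each comparison were fitted apart with limma 3.58.1 (R 4.3.3, intensity trend) on log2(TPM + 1), two-sided, for genes with at least 1 TPM in at least 4 libraries (P24 against P14) or 3 (all others), with Benjamini-Hochberg adjustment over all genes tested. All 9 genes passed the filter. Differences of effects and the order of groups came from a fit of all 14 libraries. The labels call the replicates biological, and p-values measure the spread between libraries. Whole reads were recovered from the TPM with GENCODE vM21 exon lengths for 31188 of 31189 genes (within 1e-05 of a whole number). For 7904 of these, Arg1 among them, the smallest length that fits was used, and their reads can be undercounts. Alternatives changed the pseudocount, filter, scaling, count model, libraries, replicate block and sex term, the last added after the data were seen. The scripts were tested on simulated data. 27 entries with date-like symbols were left out (at most 0.08% of TPM).

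The genes and lists were chosen with earlier results of these data known. Named were all 9 genes and, of each list of other pathway genes and comparison, up to 3 called genes with the largest fold change, plus the 3 nearest profiles of Arg2, Ass1, Otc and Odc1, of which 1 is not reported here. Coordinates are of mm10 (GRCm38), from GENCODE vM21, and promoters from RefSeq.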

Additional observations from a re-analysis of the deposited data

Results flagged for a closer look

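In 3 of 44 groups checked, 1 library stood far from the others, and chance alone gives about 1 in 20. Arg2 in P14 library 2 was at 0.219 TPM, against 0.102 to 0.118 TPM in the other P14 libraries. Asl in P24 library 1 was at 11.3 TPM, against 9.64 to 9.89 TPM. Odc1 in P14 library 5 was at 117 TPM, below the others at 129.5 to 131 TPM.

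The age effect and the rmIl22 effect differed (age minus rmIl22, log2) for Arg2 (4.64), Ass1 (-2.98), Asl (-1.50), Oat (-1.03) and Otc (0.66). They also differed for Nos2 (2.37), Aldh4a1 (1.70), Slc3a1 (0.99) and Azin1 (0.82). Below 0 were Gatm (-2.23), Aldh18a1 (-1.74), Agmat (-1.50), Glul (-1.41), Sat1 (-1.26), Slc7a2 (-0.76), Slc25a13 (-0.71) and Paox (-0.71). For this, 22 genes were checked, and of all 15702 genes tested 23.8% were called. The genes from Nos2 to Paox were named for a large called fold change with age. That change is a term of this difference, so a difference was partly built into their choice. Nos2 also met the filters of both comparisons only through the groups where it was high, and Arg2 met that of the age comparison only through P24. Nothing particular to Arg2 or to the genes from Nos2 to Paox is read from these calls.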

How the results depend on the processing

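Of 46 results on single genes, 30 kept their direction and side of the threshold in every alternative run and 16 did not. The cause of each change below was not tested, apart from fewer libraries or genes entering. With age, 2 of the 9 genes were higher with median-scaled TPM and with voom on recovered reads, against 1, and 15 other pathway genes, against 8. Median scaling moved the higher share of all calls from 25.1% to 50.0%, and voom to 49.7%. Leaving out libraries gave 6 to 7 lower genes of the 9. For rmIl22, 389 genes were called, against 98 with no filter, 1039 in the 14-library fit, 122 with the sex term and 4 (without PBS library 3) to 1309 (without rmIl22 library 2) with a library left out. Without PBS library 1 it was 14, without PBS library 2 119, and without rmIl22 library 1 or 3 it was 148 or 118. Of the 9 genes, 2 were lower, against 1 with no filter or the replicate block, 5 in the 14-library fit, 0 with the sex term and 0 to 4 with a library left out. Other pathway genes called higher numbered 1, against 0 with no filter or voom, 2 with a filter of 5 TPM, 3 in the 14-library fit and 0 to 4 with a library left out. Those called lower numbered 1, against 0 with no filter or the sex term, 4 with a filter of 5 TPM, 2 with median scaling, voom or the replicate block, 6 in the 14-library fit and 0 to 5 with a library left out. Direction turned for Otc with age (-0.034 without P14 library 1, the other libraries left out giving up to 0.132), for Arg1 after rmIl22 (-0.57 with the sex term, -0.318 without rmIl22 library 2, the others up to 0.836) and for the difference of effects of Nags (0.10 with median scaling, 0.083 with voom), none of them called. With the replicate block, 280 genes were called after rmIl22. Same-numbered PBS and rmIl22 libraries had correlations of deviations of -0.07, 0.33 and -0.05, against -0.34 to 0.40 for libraries of different number. Pairing by number was thus not shown, and 3 libraries a group cannot exclude it. No paired analysis was possible for P24 against P14 because the columns do not carry the titles' replicate numbers. Depth limits Arg2 at P14, with 3 to 7 reads a library.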
